A study of Mus musculus with 16 samples.

Results

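Transcripts of 10 voltage-gated calcium channel genes were measured in dorsal root ganglia (DRGs), the ganglia that hold the cell bodies of sensory neurons. The set comprised 7 genes for the pore-forming subunit (Cacna1a, Cacna1b, Cacna1c, Cacna1d, Cacna1e, Cacna1h and Cacna1i) and 3 for the auxiliary alpha2delta subunit (Cacna2d1, Cacna2d2 and Cacna2d3). They were picked by symbol, as pore and alpha2delta subunits, from the 52636 genes that the count tables list, and each symbol matched 1 row. All 10 had enough reads to be among the 21371 genes tested. The 16 libraries came from 16 male C57Bl6/J mice aged 3 to 4 months, 1 mouse per library and 4 mice in each of 4 groups. Sham-Saline mice had sham surgery and saline, and SNI-Saline mice had spared nerve injury (SNI) and saline. Sham-DMI and SNI-DMI mice had the same surgeries and then desipramine (DMI), a tricyclic antidepressant that blocks noradrenaline reuptake, at 15 mg/kg i.p. 2 times per day for 3 weeks. In this form of SNI the common peroneal and sural branches of the sciatic nerve are ligated and cut while the tibial branch is spared, so the L3 to L6 ganglia that were pooled from each mouse hold injured and uninjured neurons side by side. The labels and the results of the study start treatment 4 weeks after surgery, and its methods section states months in place of weeks.

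Voltage-gated calcium channels open when the membrane is depolarized and admit calcium, which triggers transmitter release, shapes firing and signals to the nucleus. The pore subunit sets the channel type. N-type and P/Q-type channels serve release at nerve endings, L-type channels couple activity to gene expression, R-type channels open at intermediate voltages, and T-type channels open near rest and tune excitability. The alpha2delta subunits carry channels to the membrane and to nerve endings, and the products of Cacna2d1 and Cacna2d2 bind gabapentin and pregabalin, which are given for neuropathic pain.

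Between 41194238 and 73920332 reads per library were counted on genes (median 61663706.5), and a calcium channel gene held between 535 and 21522 of them, so counting error was small beside the spread between mice. CPM denotes the count that edgeR scales to the normalized size of each library, and RPKM the CPM per kilobase of exon. In the labels the tissue reads spinal cord, while the cell type reads dorsal root ganglia. The 7 sensory neuron markers together held 5972 to 7726 CPM, and the 6 spinal cord markers held 7.87 to 15.0 CPM, most of it from the glial water channel gene Aqp4, with Olig2, Slc6a5 and Chat at most 0.52 CPM in every library. Markers of injured sensory neurons, such as Atf3, held 76.4 to 90.0 CPM with sham surgery and saline and 278 to 310.5 after SNI, and 98.4 to 139.9 (Sham-DMI) and 243 to 429.9 (SNI-DMI) with the drug. The labels end in a sample number, 17 to 20 (Sham-DMI), 21 to 24 (SNI-DMI), 33 to 36 (SNI-Saline) or 37 to 40 (Sham-Saline), without saying what it counts, and any step that followed it and the groups cannot be told apart. Exons of Cacna1a, Cacna1d, Cacna1h and Cacna2d2 overlap a gene on the opposite strand (Gm16183, Chdh, Tpsg1 and Gm17141), and it is not stated whether counting used the strand. The values of these 4 genes are therefore uncertain by an amount that is not known. The partners held at most 1.94, 18.4, 0.196 and 0.470 CPM, which is not a measure of that amount.

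The sequences before the transcription start are shown for 4 genes that the results turn on and whose window touches no annotated exon. They are the 250 bases before the RefSeq start on GRCm38.p6, read 5′ to 3′ on the strand of the gene, and capitals mark a GC box (GGGCGG on either strand).
Cacna1b (chr2:24763153-24763402, minus strand): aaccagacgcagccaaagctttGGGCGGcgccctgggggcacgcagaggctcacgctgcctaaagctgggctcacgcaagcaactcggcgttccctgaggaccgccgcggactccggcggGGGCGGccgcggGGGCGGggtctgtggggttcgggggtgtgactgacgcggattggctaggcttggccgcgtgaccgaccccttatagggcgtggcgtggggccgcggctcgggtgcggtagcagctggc
Cacna1i (chr15:80286988-80287237, plus strand): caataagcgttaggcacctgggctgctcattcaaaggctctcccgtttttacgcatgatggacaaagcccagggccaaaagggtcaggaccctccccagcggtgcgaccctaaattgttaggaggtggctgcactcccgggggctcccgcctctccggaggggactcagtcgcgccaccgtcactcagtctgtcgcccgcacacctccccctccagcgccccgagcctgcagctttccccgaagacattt
Cacna2d1 (chr5:15934441-15934690, plus strand): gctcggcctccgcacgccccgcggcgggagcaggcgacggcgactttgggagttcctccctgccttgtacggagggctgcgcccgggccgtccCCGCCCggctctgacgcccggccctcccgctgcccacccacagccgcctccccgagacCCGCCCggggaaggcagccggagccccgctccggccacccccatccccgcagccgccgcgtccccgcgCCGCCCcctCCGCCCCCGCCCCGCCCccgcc
Cacna2d3 (chr14:29721865-29722114, minus strand): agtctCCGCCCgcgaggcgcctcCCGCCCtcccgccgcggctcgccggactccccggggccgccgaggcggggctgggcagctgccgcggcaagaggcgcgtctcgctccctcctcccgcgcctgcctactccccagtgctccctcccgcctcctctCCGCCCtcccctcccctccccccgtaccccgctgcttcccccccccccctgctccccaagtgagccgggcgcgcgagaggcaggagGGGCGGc
GC made up 72.0% of the Cacna1b window, 62.4% of that of Cacna1i, 82.4% of that of Cacna2d1 and 80.0% of that of Cacna2d3, with 3, 0, 6 and 4 GC boxes, some of which overlap. In all, 8 of the 10 genes had an entry in the table, with 11 entries between them, and 6 of the 11 entries held a GC box, as did 32.7% of the 32851 promoters of RefSeq. No entry of the 10 genes held the cyclic AMP response element TGACGTCA (1.55% of all promoters) or the AP-1 motif TGANTCA (6.75%). The TATA box letters TATAAA (12.4%) occurred in 1 entry, the more distal start of Cacna1d. Letters in a window are a description only, since no binding or chromatin was measured here.

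Per kilobase of exon, Cacna1b and Cacna2d1 were the most abundant of the 10 genes in the ganglia of control mice. In Sham-Saline the pore gene of N-type channels, Cacna1b, stood at 29.3 ± 2.20 RPKM (SD, n = 4) and Cacna2d1 at 24.5 ± 1.34, with no overlap between them. Cacna1a (14.6 ± 0.826) and Cacna1h (12.4 ± 1.66) followed, with overlapping ranges. Next came Cacna2d2 (9.98 ± 0.654), and then Cacna1c (8.17 ± 0.698) and Cacna2d3 (7.95 ± 0.397), whose ranges overlapped. The lowest were Cacna1i (2.17 ± 0.422), Cacna1e (1.87 ± 0.273) and Cacna1d (1.55 ± 0.133), in which each overlapped its neighbour. This order rests on the length of all annotated exons, used or not, which was 25228 bases for Cacna1e, 9862 for Cacna1i and 12621 for Cacna1d. In mean CPM Cacna1e (47.2) stood above Cacna1i (21.4) and Cacna1d (19.5). Cacna1b made up 41.8% of the summed RPKM of the 7 pore genes for Sham-Saline, 42.9% for SNI-Saline, 41.8% for Sham-DMI and 41.1% for SNI-DMI. That sum was 70.1 ± 5.57 RPKM with saline and 61.2 ± 6.64 RPKM with DMI after sham surgery, and 57.5 ± 2.32 and 58.7 ± 4.76 RPKM after SNI. The order of Cacna1b, Cacna2d1, Cacna1a and Cacna1h at the top was shared by all 4 groups, but in Sham-DMI the range of Cacna2d1 reached down into that of Cacna1a.

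**Figure D1:**
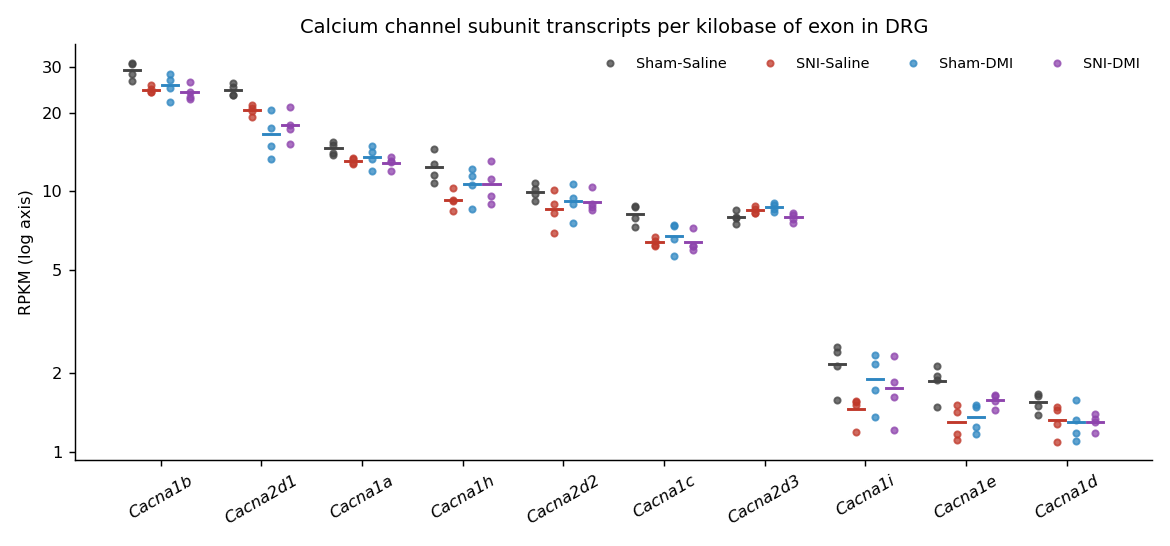
RPKM (log axis) of the 10 calcium channel genes in each mouse, ordered by their mean in Sham-Saline, with each dot a mouse and each bar the mean of 4. Cacna1b and Cacna2d1 lie at the top, and Cacna1i, Cacna1e and Cacna1d lie under 3 RPKM in every mouse.

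After SNI under saline, 5 of the 10 genes fell and none of the 10 rose. Relative to Sham-Saline, the T-type pore genes Cacna1i and Cacna1h fell by 0.57 and 0.42 on the log2 scale, the R-type gene Cacna1e by 0.52, the L-type gene Cacna1c by 0.35 and the N-type gene Cacna1b by 0.25, which put them at 0.672 to 0.842 times the sham level. A gene was called at an adjusted p under 0.1, and of all genes tested 12.0% were called in this comparison and 6.18% were called as lower. Under the cut-offs of the study for DEGs, a nominal p under 0.05 and a log2 fold change of 0.32 or more in either direction, 4 of the 10 passed, all but Cacna1b of those 5, against 7.15% of all genes. In 6 of the 10 every SNI-Saline mouse lay below every Sham-Saline mouse, namely Cacna1a, Cacna1b, Cacna1c, Cacna1h, Cacna1i and Cacna2d1, where 15.4% of all genes had groups that did not overlap and 7.74% had all SNI-Saline mice lower. The median log2 fold change was -0.25 over the 10 genes, with 9 of 10 below 0, and -6.0e-04 over all genes tested. In bulk tissue, fewer cells of a type and less RNA per cell cannot be told apart.

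DMI in uninjured mice was likewise accompanied by calls in 5 of the 10 genes, 4 lower and 1 higher. Compared with Sham-Saline, Cacna2d1 fell by 0.57 in Sham-DMI on the log2 scale, Cacna1e by 0.46, Cacna1c by 0.27 and Cacna1b by 0.20, while Cacna2d3 rose by 0.13. Of all genes tested 23.4% were called in this comparison, 11.9% as lower and 11.6% as higher. Cacna2d1 and Cacna1e met the cut-offs for DEGs (11.5% of all genes). Cacna2d1 was the 1 gene of the 10 in which the groups did not overlap, where 17.1% of all genes had no overlap. The median over the 10 genes was -0.20 and that over all genes -0.021. The injury comparison and this one share the 4 Sham-Saline libraries, so a deviation of those mice enters both with the same sign.

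**Figure D2:**
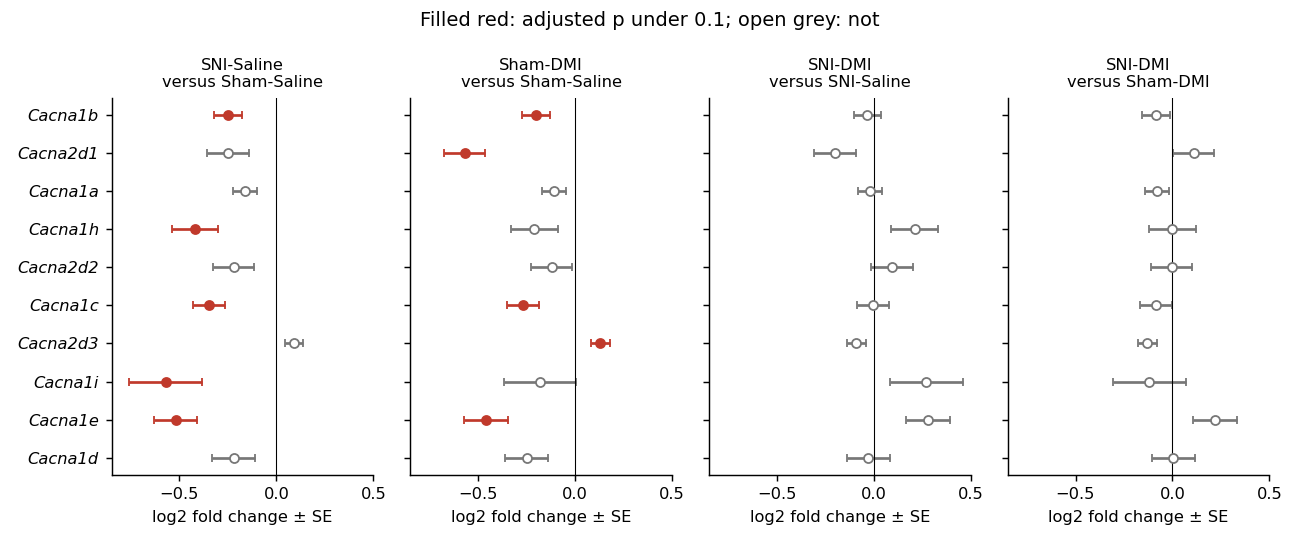
Log2 fold change of the 10 genes in 4 comparisons (points, with bars for the SE of the fit), filled red where the adjusted p was under 0.1. Filled points are 5 in SNI-Saline versus Sham-Saline, 5 in Sham-DMI versus Sham-Saline and 0 in both comparisons of SNI-DMI.

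Cacna1b, the pore of the N-type channels that drive transmitter release from nociceptor endings (ENSMUSG00000004113, chr2:24603887-24763152 in GRCm38), was at 280.4, 265, 308 and 310.1 CPM in the 4 Sham-Saline mice and at 239, 255, 247 and 239 CPM in the SNI-Saline mice. Sham-DMI mice had 267, 281, 248 and 219 CPM, and SNI-DMI mice had 240.1, 262, 230.2 and 225. All SNI-Saline mice lay below all Sham-Saline mice, and 2 of 4 Sham-DMI mice did. The log2 fold change with injury was -0.25 (SE 0.0716, adjusted p = 0.0496, exact two-sided permutation p = 0.0286, the smallest that 4 mice against 4 can give). With DMI in sham mice it was -0.20 (SE 0.0715, adjusted p = 0.0702, exact two-sided permutation p = 0.143). Leaving out Sham-Saline replicate 3 or 4, or any of SNI-Saline replicates 1, 2 and 4, ended the injury call (log2 fold change -0.26 to -0.21, adjusted p 0.107 to 0.18). The DMI call was lost without any 1 of 11 libraries, and was kept only without Sham-Saline replicate 2, SNI-Saline replicate 3 or 4, Sham-DMI replicate 2 or SNI-DMI replicate 2 (adjusted p up to 0.273, log2 fold change -0.24 to -0.11). It was also lost with edgeR on the 8 libraries compared (-0.18, adjusted p = 0.175) and after removal of the trends on GC content and exon length in each library (-0.12, adjusted p = 0.246), whereas the injury call held in both. With the trends removed, the injury call stood at an adjusted p of 0.0959. It was lost when the replicate number was also fitted as a block (-0.21, adjusted p = 0.13).

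Cacna1a, the pore of P/Q-type channels (ENSMUSG00000034656, chr8:84388440-84640246), ranged from 158 to 178 CPM for Sham-Saline and 145 to 153 for SNI-Saline, and from 137 to 171 and 136 to 155 for Sham-DMI and SNI-DMI. The SNI-Saline range lay below that of Sham-Saline with no overlap, yet the difference did not pass the test across all genes (log2 fold change -0.16, SE 0.062, adjusted p = 0.124). It passed with DESeq2, with edgeR on the 8 libraries compared and without Sham-DMI replicate 4 (adjusted p 0.0598 at the lowest of the former and 0.0744 in the latter). DMI in sham mice gave -0.11 (SE 0.062, adjusted p = 0.265).

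Among the L-type genes, Cacna1c (ENSMUSG00000051331, chr6:118587240-119196418), the main L-type pore of excitable cells, was the more abundant and the one that fell. Sham-Saline mice had 168, 155, 186 and 184 CPM of it, and SNI-Saline mice 131, 142, 137 and 133. Sham-DMI mice had 157.5, 157, 139.5 and 119, and SNI-DMI mice 131, 153, 131 and 126. The highest SNI-Saline mouse lay under the lowest Sham-Saline mouse, and 2 of 4 Sham-DMI mice lay under all Sham-Saline mice. The log2 fold change for injury was -0.35 (SE 0.0824, adjusted p = 0.0246), and that for DMI in sham mice was -0.27 (SE 0.0824, adjusted p = 0.0308). Without Sham-Saline replicate 3 neither call held (-0.30 with adjusted p = 0.102 and -0.22 with adjusted p = 0.141), and without Sham-DMI replicate 4 the DMI call was lost (-0.18, adjusted p = 0.126). Removal of the GC and length trends ended both calls (-0.22 with adjusted p = 0.166 for injury and -0.10 with adjusted p = 0.463 for DMI). Cacna1d (ENSMUSG00000015968, chr14:30039939-30491455), an L-type pore that opens at lower voltages, spanned 17.5 to 21.1 CPM for Sham-Saline, 13.8 to 18.7 for SNI-Saline, 13.9 to 19.996 for Sham-DMI and 14.8 to 17.6 for SNI-DMI. Its ranges overlapped in every comparison, and with an adjusted p of 0.242 for injury (log2 fold change -0.22, SE 0.111) and 0.128 for DMI in sham mice (-0.25, SE 0.111) it was not called. Among the fits that left out 1 library, the DMI difference of Cacna1d passed without Sham-Saline replicate 2 (-0.30, adjusted p = 0.0919) or Sham-DMI replicate 2 (-0.35, adjusted p = 0.0237).

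Cacna1e, the pore of R-type channels (ENSMUSG00000004110, chr1:154390731-154884501), was among the least abundant of the 10 per kilobase of exon. It had the lowest adjusted p of the pore genes in both comparisons with Sham-Saline. The 4 Sham-Saline mice held 37.6, 47.8, 49.3 and 54.0 CPM, and the SNI-Saline mice 35.8, 38.1, 29.5 and 27.9. Sham-DMI mice held 38.2, 37.5, 31.5 and 29.6 CPM, and SNI-DMI mice 36.5, 41.8, 39.5 and 41.3. In SNI-Saline and in Sham-DMI 3 of 4 mice lay below all Sham-Saline mice, and Sham-Saline replicate 1 was as low as the highest mice of those groups. The log2 fold change was -0.52 with injury (SE 0.112, adjusted p = 0.0176) and -0.46 with DMI in sham mice (SE 0.112, adjusted p = 0.0105), and both calls held without each of the 16 libraries in turn (adjusted p at most 0.0686 and 0.0466). Both were lost after removal of the GC and length trends, at -0.37 for injury (adjusted p = 0.145) and -0.27 for DMI (adjusted p = 0.213). The exact two-sided permutation test on the 8 mice gave p = 0.0571 for each.

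The T-type genes Cacna1h and Cacna1i encode low-voltage pores, of which that of Cacna1h is known from mechanosensory neurons and nociceptors. Cacna1h (ENSMUSG00000024112, chr17:25374285-25433783) stood at 105, 113, 125 and 142 CPM in Sham-Saline mice and at 89.7, 100.4, 90.6 and 82.2 CPM in SNI-Saline mice. With DMI it stood at 119, 112, 104 and 83.6 CPM after sham surgery and at 93.6, 128, 109 and 87.2 after SNI. Each SNI-Saline mouse lay below each Sham-Saline mouse, while both DMI groups spread over the ranges of both saline groups. Its log2 fold change with injury was -0.42 (SE 0.12, adjusted p = 0.049). Omitting Sham-Saline replicate 3 or 4, or replicate 1 or 4 of SNI-Saline, ended this call (log2 fold change -0.40 to -0.33, adjusted p 0.117 to 0.146). For DMI in sham mice the value was -0.21 (SE 0.12, adjusted p = 0.243).

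Cacna1i (ENSMUSG00000022416, chr15:80287238-80398279) had 23.8, 15.6, 21.1 and 24.9 CPM in the Sham-Saline mice and 11.8, 14.9, 15.5 and 15.3 CPM in the SNI-Saline mice. Under DMI the values were 23.3, 21.4, 13.4 and 17 CPM in sham mice and 16, 23.1, 18.2 and 12 CPM in injured mice. The SNI-Saline mice lay below the Sham-Saline mice by a narrow margin, 15.5 against 15.6 CPM. Its log2 fold change with injury, -0.57 (SE 0.188, adjusted p = 0.077), was the largest of the 10 and had the largest SE. It was no longer called when any of Sham-Saline replicates 1, 3 and 4 or SNI-Saline replicates 1, 2 and 4 was left out (-0.60 to -0.48, adjusted p 0.113 to 0.219), and with the GC and length trends removed it was not called either (-0.53, adjusted p = 0.13). DMI in sham mice gave -0.18 (SE 0.187, adjusted p = 0.549).

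Cacna2d1 (ENSMUSG00000040118, chr5:15934691-16374511), the alpha2delta gene best known from gabapentinoid action and from its rise in injured ganglia in other work, did not rise after SNI here. The Sham-Saline mice had 291, 291, 312 and 325 CPM, and the SNI-Saline mice 254, 268, 261 and 239. The Sham-DMI mice had 186, 255, 217 and 166 CPM, and the SNI-DMI mice 224, 216, 189 and 262. Sham-Saline mice were the highest, above every mouse of the other 3 groups. The log2 fold change was -0.57 with DMI in sham mice (SE 0.106, adjusted p = 0.00314), and the call held without each of the 16 libraries (adjusted p at most 0.015). Removal of the GC and length trends left it called but brought it to -0.28 (SE 0.0947, adjusted p = 0.0596). With injury it was -0.25 (SE 0.106, adjusted p = 0.157), with no overlap between the groups. With edgeR on the 8 libraries compared the injury difference was called (adjusted p = 0.0149).

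Of the other alpha2delta genes, Cacna2d2 was not called in any comparison and Cacna2d3 rose with DMI in sham mice. Cacna2d2 (ENSMUSG00000010066, chr9:107399612-107529343), the second gene for a gabapentin-binding subunit, ranged over 73.1 to 85.4 CPM for Sham-Saline, 54.9 to 80.3 for SNI-Saline, 60.3 to 84.7 for Sham-DMI and 67.7 to 82.9 for SNI-DMI. These ranges overlapped throughout, with log2 fold changes of -0.22 for injury (SE 0.106, adjusted p = 0.221) and -0.12 for DMI in sham mice (SE 0.106, adjusted p = 0.472). Cacna2d3 (ENSMUSG00000021991, chr14:28904943-29721864), a relative known from studies of heat pain, had 73.7, 69.0, 69.4 and 65.2 CPM in the Sham-Saline mice and 74.9, 71.8, 72.0 and 76.7 CPM in the SNI-Saline mice. With DMI it had 77.6, 74.8, 78.7 and 72.4 CPM after sham surgery and 71.9, 65.8, 71.1 and 68.7 CPM after SNI. In Sham-DMI 3 of 4 mice lay above all Sham-Saline mice, and all 4 lay above all SNI-DMI mice. It rose by 0.13 with DMI in sham mice (SE 0.0478, adjusted p = 0.0717), a call that ended when Sham-Saline replicate 2 or 4 or Sham-DMI replicate 3 was left out (0.10 to 0.13, adjusted p 0.114 to 0.207) and with edgeR on the 8 libraries compared or no filter on low counts (adjusted p at most 0.15). Within the summed RPKM of the 3 alpha2delta genes, Cacna2d1 held 57.8% for Sham-Saline, 54.7% for SNI-Saline, 47.9% for Sham-DMI and 51.0% for SNI-DMI, and Cacna2d3 held 18.8%, 22.6%, 25.5% and 22.8%.

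**Figure D3:**
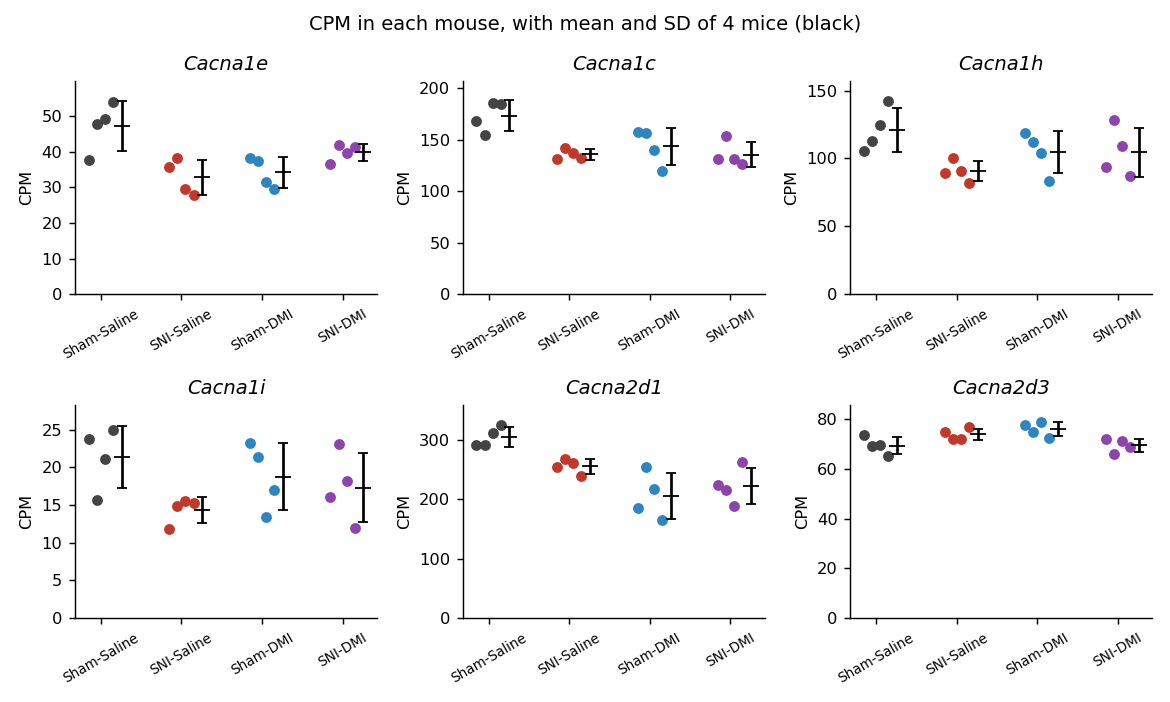
CPM of 6 calcium channel genes in each mouse (dots, by group) with the mean and SD of 4 mice in black, on axes that start at 0. For Cacna2d1 all Sham-Saline mice lie above all other mice, and for Cacna1e the mean of SNI-DMI lies under that of Sham-Saline and above the others.

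In injured mice, none of the 10 genes was called in SNI-DMI versus SNI-Saline, where 2.93% of all genes were. With DESeq2 none was called either, where 4.86% of all genes were (1859 of 38220, with no filter on low counts, in place of 21371 with edgeR). In the edgeR fit none met the cut-offs for DEGs (5.73% of all genes), and the groups overlapped in all 10, where 13.3% of all genes had no overlap. At a nominal p under 0.05 there was 1, Cacna1e (18.5% of all genes), which was higher in 3 of 4 SNI-DMI mice than in all SNI-Saline mice (log2 fold change 0.28, SE 0.112, adjusted p = 0.197). The T-type genes had 0.21 (Cacna1h, SE 0.12, adjusted p = 0.37) and 0.27 (Cacna1i, SE 0.189, adjusted p = 0.457). Without SNI-DMI replicate 2, the highest mouse of its group for both, these were 0.089 and 0.098. That library also held 175 CPM of 3 skeletal muscle markers, against 0.935 to 50.9 in the other 15, and the part of this in the values was not tested. Cacna2d1 had -0.20 (SE 0.106, adjusted p = 0.325), with 3 of 4 SNI-DMI mice below all SNI-Saline mice. The remaining 6 genes lay between -0.09 (Cacna2d3) and 0.094 (Cacna2d2), and the median over the 10 was -0.013, beside -0.0047 over all genes.

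Between both groups with DMI, SNI-DMI versus Sham-DMI, none of the 10 genes was called with edgeR or DESeq2. Of all genes 0.402% were called with edgeR (86 of 21371) and 1.31% with DESeq2 (502 of 38220, with no filter on low counts). Cacna2d3 was the 1 gene with a nominal p under 0.05 (12.1% of all genes) and the 1 gene with no overlap between the groups (5.04%), at -0.13 on the log2 scale (SE 0.0478, adjusted p = 0.301). Cacna1e had 0.22 (SE 0.112, adjusted p = 0.456), opposite in sign to its value for injury under saline. The values of Cacna1h (-2.4e-04), Cacna2d2 (-0.0040) and Cacna1d (0.0041) were near 0, and their sign changed under some of the alternatives.

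The difference between the DMI effects in SNI and sham mice tests whether DMI acted on a gene differently after injury. At an adjusted p under 0.1 it gave 0 of all genes (percent called 0) with edgeR. DESeq2 on 16 libraries called 1 of the 10, Cacna1e (adjusted p = 0.0414), and 0.0419% of all genes (16 of 38220). At a nominal p under 0.05 there were 5 of the 10 genes, against 7.92% of all genes, and 3 of these met the cut-offs for DEGs (Cacna1e, Cacna1h and Cacna2d1, against 3.45%). The edgeR values were Cacna1e (difference 0.74 on the log2 scale, SE 0.159, adjusted p = 0.593), Cacna2d3 (-0.22, SE 0.0676, adjusted p = 0.619), Cacna1h (0.42, SE 0.17), Cacna2d1 (0.37, SE 0.15) and Cacna1c (0.27, SE 0.117), the last 3 also with an adjusted p of 0.619. The median difference was 0.25 over the 10 genes and 0.0063 over all genes. It was 0.062, with 32.9% below 0, over the 3954 tested protein-coding genes at least as long as the shortest of the 10. With each library's GC content and length trends removed, the median over the 10 genes was 0.15. The Sham-Saline libraries enter this difference too, with a sign opposite to that in the injury comparison and in DMI in sham mice. The nominal counts are therefore not evidence separate from those comparisons. For Cacna1e the DMI log2 fold change was thus -0.46 in sham mice and 0.28 in injured mice, and the difference failed the correction in the test used throughout, with an adjusted p from 0.0414 to 0.675 over the alternatives.

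All 10 genes are long, with spans of 59499 to 816922 bases (median 345814) beside a median of 24480 for the 15725 tested protein-coding genes. GC makes up 40.7% (Cacna2d1) to 60.0% (Cacna1h) of the longest transcript of each. The 3954 tested protein-coding genes at least as long as the shortest of the 10 had a median of -0.10 on the log2 scale with injury, with 73.6% below 0, and of -0.14 with DMI in sham mice, with 76.8% below 0. The values of the 10 genes were also computed after each library's trends on GC content and exon length had been removed. A trend on the span of the genes was not removed. With injury the median over the 10 was then -0.21, and 2 of the 10 were called, Cacna1b (-0.21, adjusted p = 0.0959) and Cacna1h (-0.37, adjusted p = 0.0768), where 4.89% of all genes were called in place of 12.0%. The value of Cacna2d1 with injury moved to -0.058. For DMI in sham mice the median was -0.12, and the 2 genes called were Cacna2d1 and Cacna2d3 (0.23, adjusted p = 0.0058), where 19.3% of all genes were called in place of 23.4%.

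**Figure D4:**
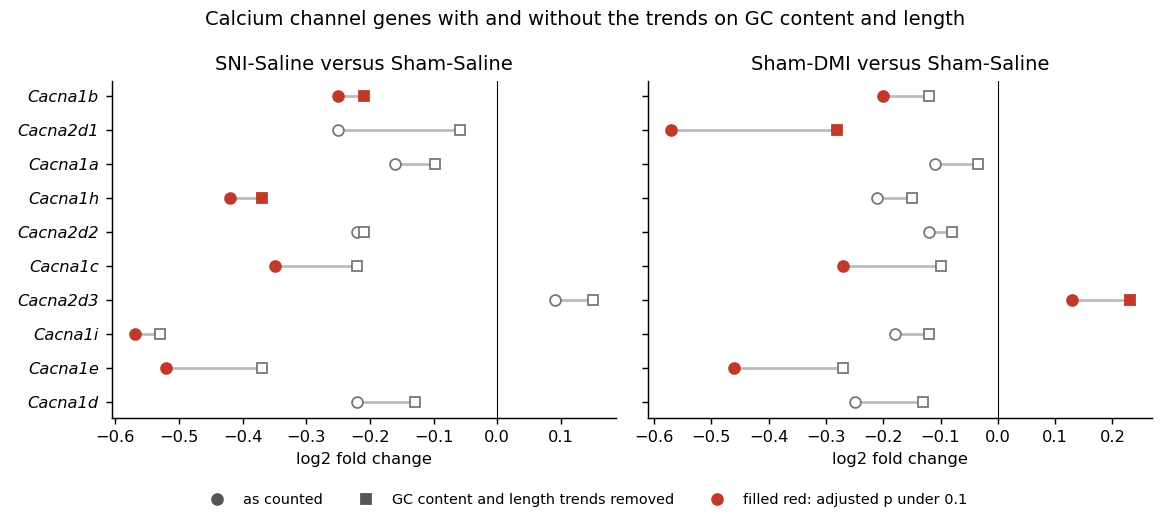
Log2 fold change of the 10 genes as counted (circles) and after removal of the GC and length trends (squares), filled red where the adjusted p was under 0.1. The fold change of Cacna2d1 with DMI in sham mice moves from -0.57 to -0.28 and stays called, and that of Cacna1e moves from -0.46 to -0.27 and loses its call.

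Of 47 other genes of the calcium channel pathway, 44 were tested, comprising further pore and alpha2delta genes, beta and gamma subunits, channel regulators, trafficking partners, release machinery, calmodulin and CaM kinase II. After SNI under saline 0 of 44 rose and 4 fell (12.0% of all genes called), with a median log2 fold change of -0.073. The 4 were Cacnb4, a beta subunit that helps pores reach the membrane (-0.43, SE 0.109, adjusted p = 0.0318), Syt1, a calcium sensor of release (-0.28, adjusted p = 0.0428), Camk2d, a calcium-dependent kinase (-0.16, adjusted p = 0.0587), and Rims2, which tethers channels at the active zone (-0.22, adjusted p = 0.0663). Cacnb4 had 124.9 ± 14.7 CPM (SD, n = 4) under Sham-Saline, 92.5 ± 11.3 under SNI-Saline, 94.6 ± 13.8 under Sham-DMI and 79.6 ± 9.27 under SNI-DMI. The other beta subunit genes, Cacnb1, Cacnb2 and Cacnb3, had log2 fold changes of -0.098, -0.17 and -0.13 with injury (adjusted p 0.4 to 0.546).

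With DMI in sham mice 4 of these 44 rose and 7 fell (23.4% of all genes called), with a median of -0.014. The smallest p-values belonged to Thbs1, a thrombospondin of the family that binds alpha2delta (-0.96, SE 0.26, adjusted p = 0.0183), Cacnb4 (-0.40, adjusted p = 0.0184), the gamma subunit gene Cacng4 (-0.35, adjusted p = 0.0263), and Dpysl2, the CRMP protein that binds N-type channels and aids their trafficking (0.39, SE 0.116, adjusted p = 0.0278). The other 3 that rose, named after their values were seen, were Vamp1 (0.19), Usp5 (0.15) and Rem2 (0.33). Among the 4 others that fell was the remaining T-type gene Cacna1g, named in the same way, which fell by 0.71 on the log2 scale (adjusted p = 0.044) from a mean of 2.54 CPM in Sham-Saline to 1.57 in Sham-DMI. In SNI-DMI versus SNI-Saline 1 of 44 was called (2.93% of all genes), Dpysl2, which rose by 0.49 (SE 0.116, adjusted p = 0.0683). In SNI-DMI versus Sham-DMI 1 of 44 was called (0.402% of all genes), Thbs2, which rose by 0.65 (adjusted p = 0.0831).

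Markers of some cell types moved with the groups as well. The 7 sensory neuron markers summed to 5972 to 6089 CPM for Sham-Saline and 6105 to 6988 for SNI-Saline. With DMI the sums were 6414 to 7726 for Sham-DMI and 6927 to 7372 for SNI-DMI. Tubb3, Prph and Uchl1 held most of the sum, with log2 fold changes of 0.21, 0.13 and 0.15 with injury. Those of Avil, Isl1, Pou4f1 and Rbfox3 were 0.034, -0.078, -0.16 and -0.10, and the median of the 7 was 0.034. Of the 7, 1 rose with injury and none fell, where 12.0% of all genes were called. With DMI in sham mice 3 rose and none fell, where 23.4% of all genes were called. The 3 markers of non-peptidergic nociceptors summed to 939.5 to 1232 CPM for Sham-Saline, 821 to 981 for SNI-Saline, 927 to 1092 for Sham-DMI and 800.05 to 955 for SNI-DMI, and 2 of 3 fell with injury, Mrgprd (-0.56) and Scn11a (-0.26). Macrophage markers (5 genes) held 48.8 to 56.0 CPM for Sham-Saline and 54.0 to 91.8 CPM for SNI-Saline, and 2 of 5 rose. Neutrophil markers (4 genes) held 7.87 to 28.2 CPM for Sham-Saline and 2.87 to 10.99 for Sham-DMI, and 4 of 4 fell. Of 6 markers of large-diameter neurons, 1 fell with injury, and 2 rose and 2 fell with DMI in sham mice. With injury no marker of peptidergic nociceptors, C-fiber low-threshold mechanoreceptors, satellite glia, Schwann cells, endothelial cells or fibroblasts was called. With DMI in sham mice none of C-fiber low-threshold mechanoreceptors, Schwann cells or fibroblasts was. The part of cell type changes in the calcium channel values was not tested.

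Over the 16 libraries, the protein-coding genes whose log2 CPM ran closest to a calcium channel gene are given with Pearson's r as a description, since the points share groups, depth and base composition. For Cacna1b they were Bsn (0.968), Lrrc75b (0.965) and Gnal (0.963), and for Cacna1c they were Gnal (0.971), Bsn (0.966) and Apba1 (0.965). Mgat4a (0.952), Dchs1 (0.924) and Gabrg3 (0.923) ran closest to Cacna1e. Chd5 (0.946), Arhgef18 (0.945) and Adora1 (0.935) did so for Cacna1h, and Gfra2 (0.96), Wnt2b (0.942) and Casz1 (0.941) for Cacna1i. Among the genes closest to Cacna2d1 were Hif1a (0.92) and Mtpn (0.912), and those closest to Cacna2d3 were Dffa (0.944), P2rx5 (0.912) and Vamp1 (0.89).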

How the data were processed

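RNA of the pooled L3 to L6 ganglia of each mouse was sequenced by the authors from stranded mRNA libraries in pairs of 50-base reads. Reads were aligned to mm10 by the authors, who deposited whole-number counts per Ensembl gene, without normalization. The submitters' processing notes name HISAT2, HTSeq and DESeq2. The annotation release and the strand setting of the counting are not given in the sources used here. Each file ends with 5 lines of reads not assigned to a gene (18.83% to 20.44% of the total), which were left out. Of the 52636 genes listed, 52489 were matched to GENCODE M21 on GRCm38, the source of symbols, coordinates and exon lengths.

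The analysis used edgeR 4.0.16 under R 4.3.3. After filterByExpr (21371 genes) and TMM scaling, glmQLFit was run over all 16 libraries with a coefficient for each of 4 groups, and glmQLFTest gave p-values, adjusted by the Benjamini-Hochberg method over all genes tested. The study gives the thresholds but not the samples of its fit. Alternatives, 9 in number, were DESeq2 1.42.0, other scaling (DESeq2 size factors, upper quartile), no filter, at least 10 counts in every library, edgeR on the 8 libraries compared, the replicate number as a block, and removal of GC content and length trends with mgcv 1.9.3 (basis size 8) with and without that block. DESeq2 and the fit with no filter took all 38220 genes with at least 1 read, and their shares of all genes use that number. Each library was also left out in turn. For single values the exact permutation test, two-sided, was run over log2 CPM (prior count 2). Each label is 1 mouse, so replicates are biological, and no pair of libraries of the same group agreed within sampling noise (chi-square per gene at least 7.33). The procedure was tested on simulated data. Promoter sequences came from RefSeq on GRCm38.p6. Software for tabulation and plots was pandas 2.3.3, scipy 1.17.1 and matplotlib 3.10.9 in python 3.11.15.

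The 10 genes, the pathway and marker lists, the tests and the alternatives were chosen with earlier results of these data known. All 10 are named, with the pathway genes called in a comparison (at most the 4 with the smallest p) and, for each of the 10 that was called in a simple comparison, the 3 tested protein-coding genes with the highest Pearson correlation, of which 1 is not reported here.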

Additional observations from a re-analysis of the deposited data

Results flagged for a closer look

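In 1 of 40 sets of 4 mice (10 genes in 4 groups), a single mouse lay far from the other 3. Cacna1i in SNI-Saline replicate 1 had 11.8 CPM, the lowest of its group, where the next lowest had 14.9, and the gap made up 0.835 of the range of the group, above the critical value of Dixon's test. Chance gives such a gap in about 1 of 20 sets. Without that mouse the log2 fold change of Cacna1i with injury was -0.48 (adjusted p = 0.219), and its call was lost.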

How the results depend on the processing

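For injury under saline, the number of the 10 genes called was 5, with 12.0% of all genes tested called. It was 7 with edgeR on the 8 libraries compared (16.7% of all genes) and 6 with DESeq2 (8.87%). It was 2 with the GC content and length trends removed (4.89% of all genes) and 1 with these trends removed and the replicate block (2.78%). When 1 library was left out it was 1 to 6 (3.15% to 15.1%). The lowest came without Sham-Saline replicate 3, which also left the lowest share of all genes called. It was 2 without Sham-Saline replicate 4, SNI-Saline replicate 1 or SNI-Saline replicate 4, and 3 without SNI-Saline replicate 2. For DMI in sham mice it was 5 (23.4% of all genes), and 3 with edgeR on the 8 libraries compared (18.3%), 2 with the trends removed (19.3%), 2 with these and the replicate block (18%), and 3 to 6 without 1 library (15.2% to 28.1%). The lowest came without Sham-Saline replicate 3 or 4 or Sham-DMI replicate 3 or 4. For the difference between the DMI effects it was 0 (0% of all genes), and 1 with DESeq2 (0.0419%). Comparisons of SNI-DMI with SNI-Saline and with Sham-DMI gave 0 of the 10 under every alternative and without each library. The share of all genes called ran from 0% to 8.86% in the former and from 0.0443% to 3.91% in the latter. In some of these fits, as without SNI-Saline replicate 1, no gene at all was called in SNI-DMI versus SNI-Saline. There the 0 of the 10 says nothing about the calcium channel genes. The replicate block alone gave 4 for injury (9.85% of all genes), with Cacna1i no longer called (-0.58, adjusted p = 0.106), and 6 for DMI in sham mice (22.2%), with Cacna1d called as well (-0.26, adjusted p = 0.0964). The replicate numbers are not stated to pair the mice. Same-numbered libraries of 2 groups had correlations of deviations from -0.0813 to 0.184, and the highest with another number was 0.169. Such values cannot tell whether same-numbered mice shared a litter or a day. The cause of the changes in calls was not tested.

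Of 1240 single log2 fold changes under an alternative, 1129 kept their direction and their side of the threshold, 49 lost a call, 8 gained one and 54 changed sign, all of the last in genes not called. Only genes called in the edgeR fit over all 16 libraries could lose a call, which were 5 for injury under saline and 5 for DMI in sham mice. The sign changed for Cacna1a in the difference between the DMI effects with the trends removed (-0.033, with and without the block). In SNI-DMI versus SNI-Saline it changed for Cacna1c (0.0024 with no filter, 0.044 with the trends removed and 0.043 with the block as well) and Cacna1d (0.011 and 0.016 in the latter fits). In SNI-DMI versus Sham-DMI it changed for Cacna1d (-0.0035 with DESeq2 size factors, -9.6e-04 with the upper quartile and -0.0026 with DESeq2), Cacna1h (0.0026 with no filter, 0.0027 with at least 10 counts in every library and 0.0044 on 8 libraries) and Cacna2d2 (8.3e-04 on 8 libraries and 3.0e-04 with the replicate block). Without 1 library, the values in SNI-DMI versus SNI-Saline ran from -0.035 to 0.013 for Cacna1a, -0.083 to 0.0032 for Cacna1b, -0.072 to 0.035 for Cacna1c and -0.11 to 0.033 for Cacna1d. In SNI-DMI versus Sham-DMI they ran from -0.08 to 0.12 for Cacna1d, -0.11 to 0.063 for Cacna1h, -0.29 to 0.0098 for Cacna1i and -0.099 to 0.083 for Cacna2d2. With 4 mice per group the spread between mice, not the read depth, limits these values.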
